A study of Mus musculus with 8 samples.

Results

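Immediate early genes are transcribed within minutes of synaptic activity without new protein synthesis, and 10 of them were followed here: *Fos*, *Fosb*, *Junb*, *Egr1*, *Egr3*, *Npas4*, *Nr4a1*, *Nr4a3*, *Arc* and *Homer1*. They were chosen by name as activity-induced genes. All 10 were found by symbol among 46517 genes in bulk RNAseq and 24051 genes in snRNAseq of mouse hippocampus. The mutants were *Wls* fl/-;*Gfap-Cre* and the controls *Wls* fl/+;*Gfap-Cre*, all 12 weeks old, and *Wls* encodes Wntless, the protein that escorts Wnts out of the cell. Every mouse, controls included, carried the *Gfap-Cre* transgene, which acts in progenitors of cortex and hippocampus, and the null allele of the mutants was present in all of their cells. Mutants lack most dentate granule cells (DGCs), the main input neurons of the hippocampus, and also lack the corpus callosum. Each of the 2 assays used 2 mice per genotype, and each sample was both hippocampi of a single mouse. The labels and methods name no stimulus or task before dissection, so levels are those of the mice as they were taken.

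In these libraries the targeted gene and the labels were checked first. *Wls* was 13.2 and 13.0 CPM (counts of a gene scaled to a common library size) in the bulk controls and 3.67 and 6.86 CPM in the mutants. *Prox1*, the DGC transcription factor, was 165 and 174 CPM in bulk controls and 32.4 and 18.8 CPM in mutants. All mice are labelled male, but bulk replicate 2 of both genotypes went against that label, with *Xist* at 518 CPM in the control and 230 CPM in the mutant and *Ddx3y* below 0.353 CPM. The other 2 bulk libraries had *Xist* at 1.05 and 1.44 CPM. In the 4 nuclei samples *Ddx3y* was between 31.6 and 53.8 UPM (UMIs of a gene scaled to the same total as CPM) and *Xist* no higher than 3.49 UPM. This mismatch was in 1 library of each genotype, so bulk values are given for each library, and leaving out each library in turn is reported below.

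Neuromodulator receptors, NMDA receptors and voltage-gated calcium channels raise calcium and cAMP in an active neuron. Kinases then phosphorylate factors that already sit on these genes, such as CREB on cAMP response elements and SRF with its ELK partners on CArG boxes. *Fos*, *Fosb* and *Junb* encode subunits of the AP-1 dimer, *Egr1* and *Egr3* encode zinc finger factors, and *Nr4a1* and *Nr4a3* encode orphan nuclear receptors. *Npas4* encodes a bHLH-PAS factor that responds to calcium entry in neurons. *Arc* and *Homer1* differ in kind, since they encode synaptic proteins. ARC acts in the removal of AMPA receptors from the membrane, and HOMER1 links membrane receptors to the postsynaptic scaffold. *Homer1* makes a short activity-induced form and long constitutive forms, and values per gene do not separate them.

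The upstream sequences of 4 members are shown because they carry the motif that the 7 members searched had in common. Sequences are from RefSeq on GRCm38.p6, 5′ to 3′ on the strand of the gene, and capitals mark TGACG or its reverse complement CGTCA, the core of the cAMP response element. The *Fos* stretch, chr12:85473640-85473889 on the plus strand, ends at the base before the transcription start. The *Nr4a1* stretch, chr15:101266596-101266845 on the plus strand, and the *Homer1* stretch, chr13:93303507-93303756 on the plus strand, also end there. These 2 lie within the annotated span of their gene but outside its exons in GENCODE vM21. The *Nr4a3* stretch, chr4:48045055-48045152 on the plus strand, is the 98 bases of its window that lie upstream of the annotated gene.
Fos: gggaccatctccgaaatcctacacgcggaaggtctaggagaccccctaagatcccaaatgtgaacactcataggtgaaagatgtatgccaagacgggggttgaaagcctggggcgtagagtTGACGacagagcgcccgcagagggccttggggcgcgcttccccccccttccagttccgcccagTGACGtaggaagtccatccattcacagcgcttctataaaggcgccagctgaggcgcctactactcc
Nr4a1: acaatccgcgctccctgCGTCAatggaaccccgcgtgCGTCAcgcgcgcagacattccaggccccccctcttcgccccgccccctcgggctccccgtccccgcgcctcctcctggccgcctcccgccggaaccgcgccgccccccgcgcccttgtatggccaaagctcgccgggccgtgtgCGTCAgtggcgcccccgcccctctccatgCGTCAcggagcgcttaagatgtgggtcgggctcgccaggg
Homer1: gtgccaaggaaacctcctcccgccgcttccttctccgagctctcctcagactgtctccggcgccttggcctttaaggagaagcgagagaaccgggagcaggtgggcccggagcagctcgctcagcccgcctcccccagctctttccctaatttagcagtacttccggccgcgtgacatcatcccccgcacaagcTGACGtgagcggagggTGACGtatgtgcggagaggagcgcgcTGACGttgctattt
Nr4a3: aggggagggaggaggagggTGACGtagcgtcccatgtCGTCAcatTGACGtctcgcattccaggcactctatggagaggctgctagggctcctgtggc
TGACG was found, on either strand, 2 times in this *Fos* stretch, 4 times in *Nr4a1* and 3 times each in *Homer1* and *Nr4a3*. In *Fos* the motifs lay 129 and 66 bases upstream of the start, and a TATAAA lay 33 bases upstream. In windows of the same length, from 250 bases before to 50 bases after the start, 7 of 7 members searched held TGACG. This compares with 20.9% of 32544 windows of all genes. The members searched were *Fos*, *Fosb*, *Junb*, *Npas4*, *Nr4a1*, *Nr4a3* and *Homer1*, and a window at another start of *Homer1* held none. *Arc*, *Egr1* and *Egr3* were not searched. The palindrome TGACGTCA, which holds TGACG on each strand, was in 0 member windows, and in 1.8% of all windows. GCGGGGGCG, bound by EGR factors, was in the windows of *Fosb* and *Nr4a1* and in 2.93% of all windows. A CArG box was in 0 member windows and in 1.64% of all windows, which says only that these letters are not in this stretch. A match is a description of the sequence and not a measured binding site.

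The bulk comparison asked whether the members differed between genotypes in whole hippocampus. Members spanned a wide range of levels there, from 225 to 10448 expected reads. On the TPM scale, which allows for transcript length, *Homer1* was highest, with a mean of 74.4 TPM over the 4 libraries. *Egr3* followed at 49.3, *Arc* at 44.7, *Egr1* at 43.1 and *Nr4a3* at 42.8 TPM. *Junb* was 33.8 and *Nr4a1* 28.7 TPM. *Fos*, *Fosb* and *Npas4* were lowest, and no library put any of these 3 above 8.68 TPM.

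No member passed the thresholds of FC above 3 and FDR below 0.05 in bulk RNAseq, which 0.218% of 20687 genes passed. At any fold, FDR was below 0.05 for 0 of the 10 members and for 1.21% of genes. One member, *Nr4a1*, had an unadjusted p under 0.05 in edgeR, and DESeq2 gave it an FDR of 0.00157, with a fold under the threshold. *Nr4a1* was 26.4 and 27.6 CPM in controls and 35.5 and 46.2 CPM in mutants. Both mutants thus lay above both controls, with a log2 fold change of 0.60 ± 0.13 (SE) and an FDR of 0.116 in edgeR. With 1 library left out the log2 fold change ranged from 0.39 to 0.78. Over 4 members both mutants lay above both controls, against 25.8% of all genes, and for 1 member, *Egr3*, both lay below, against 25.4% of genes. With 10 members these shares are a description only.

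*Fosb* was 8.20 and 8.21 CPM in controls and 10.1 and 9.77 CPM in mutants, a log2 fold change of 0.27 ± 0.11 (SE) with FDR 0.268. *Npas4* was 6.75 and 6.08 CPM in controls and 7.26 and 7.91 CPM in mutants, with FDR 0.405. *Nr4a3* was 110 and 104 CPM in controls and 115 and 117 CPM in mutants, with FDR 0.320. These 3 were the other members without overlap above the controls. *Egr3* was 33.9 and 34.6 CPM in controls and 29.1 and 32.5 CPM in mutants, with FDR 0.385. The genotypes overlapped for the remaining 5. *Fos* was 5.26 and 5.73 CPM in controls and 3.82 and 5.95 CPM in mutants. *Junb* was 29.2 and 27.1 CPM against 26.3 and 34.7 CPM, and *Arc* was 64.2 and 63.2 CPM against 52.5 and 81.1 CPM. The mutant replicates thus stood on either side of the controls for *Fos*, *Junb* and *Arc*, and each of these folds changed sign when 1 mutant library was left out. *Egr1* was 68.9 and 49.4 CPM in controls and 63.9 and 77.3 CPM in mutants. *Homer1* was 107 and 130 CPM in controls and 107 and 131 CPM in mutants, the smallest fold of the 10 at 0.01 ± 0.13 (SE) on the log2 scale. In bulk tissue, fewer cells of a type and less RNA per cell cannot be told apart.

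**Figure D1:**
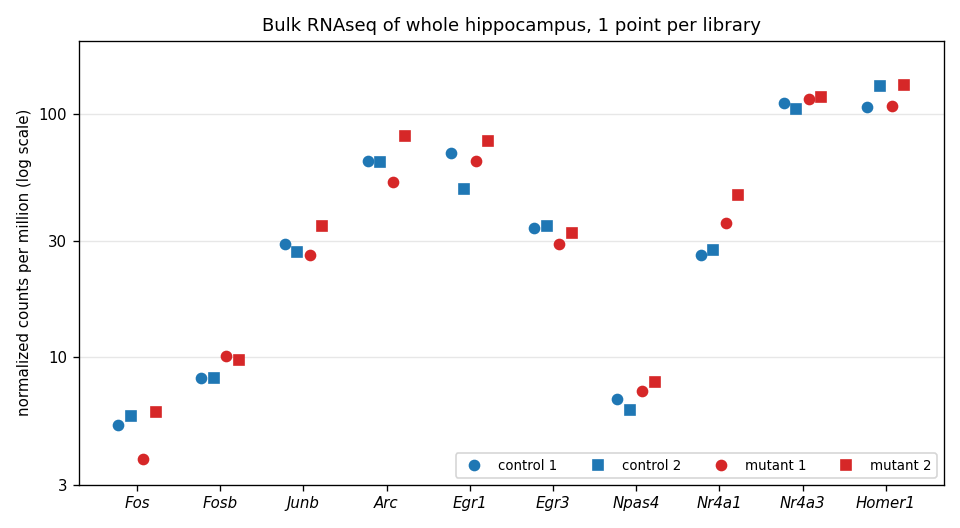
Bulk RNAseq level of each member as normalized CPM on a log axis, with 1 point per library, controls in blue and mutants in red, circles for replicate 1 and squares for replicate 2. *Nr4a1* shows both mutants (35.5 and 46.2 CPM) above both controls (26.4 and 27.6 CPM), while the points of *Arc*, *Junb* and *Fos* overlap.

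Other genes of the activity program were counted beside the members in bulk. Of 15 other early transcription regulators, 0 reached an FDR below 0.05 in edgeR and 3 did in DESeq2 (*Jun*, *Btg2* and *Fosl2*), with 4 at an unadjusted p under 0.05 in edgeR. Their median log2 fold change was -0.01 against 0.01 over all genes. The lowest p among them belonged to *Fosl2*, *Jun* and *Btg2*. *Jun*, the main partner of FOS in AP-1, was 114 and 103 CPM in controls and 68.7 and 52.8 CPM in mutants, with FDR 0.0671. Among 14 other early genes, *Dusp5*, a phosphatase that acts on ERK, rose from 14.8 and 14.2 CPM to 24.0 and 25.2 CPM (log2 fold change 0.76 ± 0.09 (SE), FDR 0.0348). Among 10 later activity genes *Nrn1*, which encodes neuritin, fell by 0.43 on the log2 scale with FDR 0.0423. Of 17 upstream factors and kinases 15 were lower and 2 passed FDR below 0.05, with a median of -0.17. Over all genes 9943 of 20687 were lower. In summed nuclei, 6 of these 17 were lower in CA1, 6 in CA3 and 7 in DGCs. In bulk *Mef2c* fell from 145 and 138 CPM to 76.7 and 72.4 CPM (FDR 0.0135), and *Elk1* fell from 96.7 and 102 CPM to 72.0 and 70.9 CPM (FDR 0.0282). At an FDR below 0.05, DESeq2 gave 4 of 14 other early genes, 4 of 10 later activity genes and 8 of 17 upstream factors and kinases. The share over all genes at that FDR is not given for DESeq2, so its counts are a description only.

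In snRNAseq the 4 samples held 5304 to 10460 nuclei, with median depths of 4128 to 7544.5 UMIs. The submitters labelled 21 types, and 18 had at least 10 nuclei in every sample. Pairs of samples shared 8 to 21 barcodes, at most 0.309% of the smaller sample. Labels were compared with marker genes. Markers of DGCs, CA2 and mossy cells (MCs) summed highest in nuclei of that label. CA1 markers summed to 496 UPM in CA1 and 513 to 589 UPM in excitatory neurons 7, 8 and 10. CA3 markers summed to 1239 UPM in CA3 and higher in CA2, MCs and excitatory neurons 13. Another 3 labels went against their markers. Nuclei labelled excitatory neurons 19 summed to 104 UPM for 4 excitatory markers, to 572 UPM for meningeal ones and to 998 UPM for astrocyte ones. Those labelled inhibitory neurons 14 summed to 386 UPM for inhibitory markers. Endothelial markers summed to 1730 UPM there, meningeal ones to 1556 UPM and astrocyte ones to 1813 UPM. Neither label is counted as neurons below. Inhibitory neurons 15 summed to 76.9 UPM for inhibitory markers and to 238 UPM for excitatory ones. Its 1 nucleus in control 2 was too few for the tests, and its nuclei were also left out of the search for like genes. The types come from the same 4 mice and are not independent of each other.

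The replicates of a genotype differed more in these genes than in most. In UMIs summed over all nuclei, replicate 1 was above replicate 2 in UPM for 10 of 10 members in mutants and for 9 of 10 in controls, where *Nr4a3* was 36.7 and 37.2 UPM. On TMM-scaled CPM the median log2 ratio of replicate 1 to replicate 2 was 0.59 in controls and 0.74 in mutants, where the median size of that ratio over all genes was 0.178 and 0.199. *Fos* was 15.4 and 5.54 UPM in the controls and 17.4 and 5.84 UPM in the mutants. In bulk, the members' median was 0.0918 in size in controls and 0.280 in mutants, against 0.0865 and 0.121 for all genes. The source of the shift between replicates was not tested. With 2 samples per genotype an exact permutation test cannot go below p = 0.33, so the calls below rest on edgeR's fit over all genes.

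In the summed nuclei of whole samples, 0 of 10 members passed FDR below 0.05 in edgeR, with or without the DGC nuclei. At an unadjusted p under 0.05 the count was also 0, and DESeq2 gave 0 at an FDR below 0.05. *Arc* was 50.2 and 22.0 UPM in controls and 30.1 and 16.5 UPM in mutants, a log2 fold change of -0.67 ± 0.47 (SE). Without DGCs it was 67.6 and 27.3 UPM in controls against 30.5 and 17.2 UPM. *Homer1* was 311 and 180 UPM in controls and 223 and 141 UPM in mutants. For these 2 genes the genotypes overlapped, since the second control lay below the first mutant. *Npas4* was 13.4 and 7.72 UPM in controls and 19.6 and 14.4 UPM in mutants, the only member with both mutants above both controls in that sum, and it overlapped once DGCs were left out.

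Levels by cell type were described next, as UPM of the summed nuclei of each sample and type. *Arc* was highest in CA1 pyramidal neurons, at 103 and 48.1 UPM in controls and 46.4 and 29.7 UPM in mutants. *Homer1* was also highest in CA1, at 572 and 353 UPM in controls and 307 and 213 UPM in mutants. *Fos*, *Junb* and *Npas4* were highest in excitatory neurons 8, *Fosb* in excitatory neurons 10, *Egr3* in excitatory neurons 7 and *Nr4a1* in excitatory neurons 13. *Nr4a1* had a mean of 116 UPM there and 88.0 UPM in CA1. *Egr1* had its highest mean in excitatory neurons 19, the label that its markers go against, at 18.3 to 121 UPM, and then in excitatory neurons 8 at 37.5 to 59.7 UPM. *Nr4a3* had its highest mean in MCs of the dentate hilus, at 156, 136, 145 and 102 UPM in control 1, control 2, mutant 1 and mutant 2. Its next type was CA3, at 56.3 to 81.6 UPM, so the ranges of these neighbours did not overlap, but excitatory neurons 10 reached 143 UPM in control 2. Across the order of 18 types, neighbours overlapped in 16 of 17 steps for *Nr4a1* and *Nr4a3* and in 17 of 17 steps for each of the other 8 members. Microglia and oligodendrocytes or OPCs were lowest for 6 members.

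**Figure D2:**
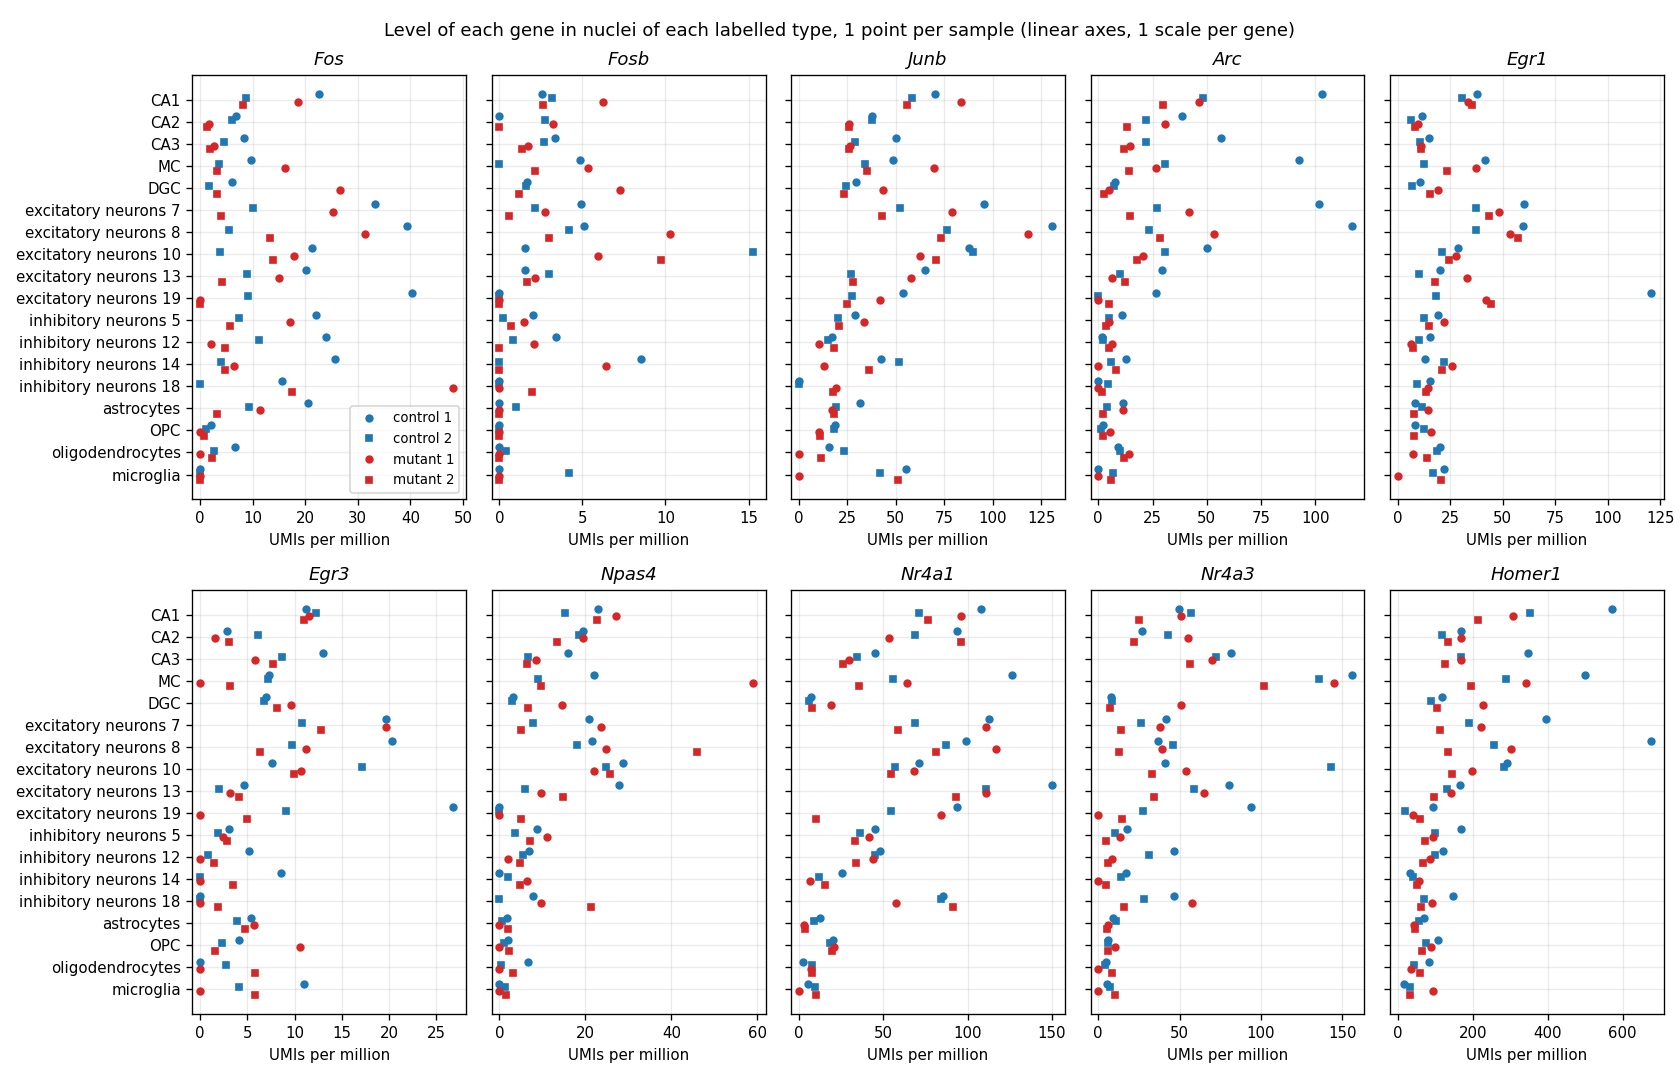
UPM of each member in the summed nuclei of 18 labelled types, with 1 point per sample, controls in blue and mutants in red, circles for replicate 1 and squares for replicate 2, and a linear axis for each gene. CA1 stands high for *Arc* and *Homer1*, MCs for *Nr4a3*, and control DGCs lie near the left of every panel except those of *Junb*, *Egr3* and *Homer1*.

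DGCs of control mice held little of these transcripts beside CA1. In both genotypes 8 of 10 members were higher in CA1 than in DGCs in each of the 4 samples, and the exceptions were *Fos* and *Fosb* in mutant 1, with 11 and 3 DGC UMIs. *Nr4a3* in mutant 1 was 1.00-fold, that is level. *Nr4a1* was 15.5-fold and 11.9-fold higher in CA1 than in DGCs in the controls. *Arc* was 13.3-fold and 6.52-fold higher. *Npas4* was 7.02-fold and 5.41-fold higher, and *Nr4a3* 6.24-fold and 6.65-fold. *Junb* and *Egr3* differed least among members with over 50 DGC UMIs in each control, at 2.38-fold and 2.42-fold for *Junb* and 1.62-fold and 1.82-fold for *Egr3*. DGC nuclei gave 29.2% and 26.4% of all UMIs in controls but 4.50% and 8.85% of *Arc* UMIs and 3.48% and 4.06% of *Nr4a1* UMIs. CA1 nuclei gave 28.1% and 28.0% of all UMIs and 57.7% and 61.1% of *Arc* UMIs. In mutants DGCs gave 1.57% and 4.48% of all UMIs.

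RNA free in the suspension also gives UMIs in cells that do not express a gene. Oligodendrocytes, which should lack *Arc*, had 8.97, 9.81, 14.3 and 11.6 UPM of it in control 1, control 2, mutant 1 and mutant 2. *Arc* in DGCs was below that level in each sample. It was 7.74 and 7.38 UPM in controls and 4.83 and 2.63 UPM in mutants (edgeR, FDR 0.179). Other glia differed, with 1.99 to 11.6 UPM in astrocytes, at most 5.26 UPM in OPCs and at most 6.94 UPM in microglia. Whether *Arc* in DGCs is background was not tested. Shares of nuclei with an *Arc* UMI are given at the depth of each type, which differed. They were 2.61% and 3.39% of control DGCs, at median depths of 4628 and 7688 UMIs, and 1.72% and 2.43% of control oligodendrocytes, at 1727 and 2339 UMIs. In control CA1 nuclei the share was 47.0% (exact 95% interval 44.1 to 49.8) and 36.5% (33.8 to 39.2), at depths of 8215 and 12164 UMIs. In mutant CA1 it was 19.1% in both samples, at 5270 and 9098 UMIs. These intervals cover counting error only.

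The comparison within each type asked whether the members differed between mutant and control nuclei of the same label. Of 180 pairs of a member and a type, 115 had enough UMIs to be tested. The fold was below 0 on the log2 scale in 77 pairs and above 0 in 38. Both mutants lay below both controls in 30 of 115 pairs, against 22.7% of all tests in the 18 types, and above in 8, against 18% of all tests. An unadjusted p under 0.05 was found in 21 of 115 pairs, 18 of them lower in mutants, against 9.31% of all tests. The 115 pairs share mice and reads and are no independent trials. One pair passed FC above 2 and FDR below 0.05, against 0.19% of all tests.

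That pair was *Nr4a3* in inhibitory neurons 12, where 0.0735% of 9523 genes passed. It was 46.3 and 31.0 UPM in controls and 8.32 and 5.77 UPM in mutants, from 27 and 39 UMIs against 4 and 12. Both mutants were below both controls, with a log2 fold change of -2.48 ± 0.42 (SE) and FDR 0.0400. DESeq2 gave FDR 0.297 for the same fold, and leaving out mutant replicate 2 gave FDR 0.240. In the same nuclei *Fos* was 24.0 and 11.1 UPM in controls and 2.08 and 4.81 UPM in mutants, with FDR 0.350. *Homer1* there was 122 and 98.5 UPM against 87.4 and 66.3 UPM, with FDR 0.532.

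By member, *Arc* had a log2 fold below 0 in 11 of 12 types tested, with a median of -0.98. *Nr4a3* was below 0 in 11 of 12 with a median of -0.49, and *Homer1* in 13 of 17 with a median of -0.46. *Fos* was below 0 in 8 of 10 types with a median of -0.44, and *Junb* in 10 of 16. *Egr1* was below 0 in 5 of 12, *Npas4* in 4 of 10 and *Fosb* in 1 of 4. *Nr4a1* was below 0 in 10 of 15 types with a median of -0.07, and *Egr3* in 4 of 7. These are counts of direction, and 1 of the 115 pairs was called.

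In CA1 both mutants lay below both controls for *Arc* and *Homer1* only, 2 of 10 members, which is near the 20.2% of all genes in CA1. The log2 fold change was -1.03 ± 0.37 (SE) with FDR 0.452 for *Arc* and -0.86 ± 0.28 (SE) with FDR 0.421 for *Homer1*. The other 8 overlapped. *Egr1* in CA1 was 37.7 and 30.8 UPM in controls and 33.6 and 35.3 UPM in mutants, and *Nr4a1* was 108 and 71.0 UPM against 96.4 and 76.6 UPM. No gene of 16785 passed the thresholds in CA1 in edgeR, where 1678 had an unadjusted p under 0.05, and DESeq2 called 24, with 0 members among them. Among other lists in CA1, 8 of 10 other early transcription regulators, 10 of 12 other early genes and 8 of 10 later activity genes were below 0, with 0 called in each. Of 17 upstream factors and kinases 6 were below 0, and the median over all genes was 0.01.

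In CA3 pyramidal neurons, the targets of DGC axons, the fold of all 10 members was below 0, with a median of -0.59 against 0.01 over all 15040 genes. Both mutants were below both controls for 8 of them, against 24.5% of all genes in CA3, and *Egr1* and *Npas4* overlapped. *Arc* was 56.4 and 22.2 UPM in controls and 14.6 and 11.7 UPM in mutants, with FDR 0.218 in edgeR and 0.0143 in DESeq2. *Fos* was 8.45 and 4.55 UPM in controls and 2.72 and 1.90 UPM in mutants, from 43, 42, 8 and 26 UMIs, with FDR 0.262. *Homer1* was 346 and 169 UPM in controls and 169 and 125 UPM in mutants, and the nearest samples of the genotypes were at 169.154 and 168.711 UPM. Of 9 other early transcription regulators all 9 were below 0, as were 11 of 12 other early genes and 8 of 9 later activity genes, where 6 of 17 upstream factors were. *Bdnf*, which encodes a neurotrophin, had a log2 fold change of -0.75 ± 0.20 (SE) with FDR 0.216. No gene was called in CA3 in edgeR, where 1876 genes had an unadjusted p under 0.05, and DESeq2 called 85, with *Arc* among them. Markers of DGCs summed to 22.0 and 20.8 UPM in control CA3 nuclei and 2.72 and 6.72 UPM in mutant ones, and markers of CA1 to 23.6 and 24.7 UPM against 46.3 and 51.8 UPM. The part of these in the CA3 values was not tested.

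Mossy cells and other neurons added smaller samples. In MCs, with 27 to 89 nuclei a sample, *Arc* was 92.5 and 30.7 UPM in controls and 26.8 and 13.9 UPM in mutants, with FDR 0.210 and 5 to 38 UMIs. *Nr4a1* in MCs was 127 and 56.1 UPM in controls and 64.3 and 35.4 UPM in mutants, so the genotypes overlapped. In excitatory neurons 10 *Arc* was 50.1 and 30.5 UPM in controls and 20.8 and 17.7 UPM in mutants, and *Homer1* was 291 and 282 UPM against 199 and 145 UPM. *Nr4a3* there was 41.0 and 143 UPM in controls and 54.0 and 33.0 UPM in mutants, a fold that rested on control 2. In excitatory neurons 8 *Homer1* was 677 and 257 UPM in controls and 302 and 133 UPM in mutants. *Npas4* in the same nuclei was 21.6 and 18.1 UPM in controls and 24.8 and 46.0 UPM in mutants. In inhibitory neurons 5 *Homer1* was 169 and 99.6 UPM in controls and 94.8 and 73.5 UPM in mutants. In astrocytes *Fos* was 20.6 and 9.22 UPM against 11.5 and 3.18 UPM, and *Nr4a1* was 12.5 and 8.73 UPM against 2.87 and 3.58 UPM, from 1 to 23 UMIs. Except for *Arc* in MCs, FDR was 0.329 or higher for each of these pairs.

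The few DGCs left in mutants went the other way for most members. Only 90 and 463 DGC nuclei were present in the mutants, against 2336 and 2007 in the controls. Genes that mark parts of the dentate gyrus also differed between them. *Trhr*, a gene of the ventral dentate gyrus, was 6.68 and 7.44 UPM in control DGCs and 60.4 and 56.9 UPM in mutant ones. *Lct*, a dorsal gene, was 25.1 and 28.1 UPM against 12.1 and 9.34 UPM. A change within DGCs and a change in which DGCs are present cannot be told apart here. In them 9 of 10 members had a fold above 0, with a median of 0.61 against -0.01 over all 15003 genes. Both mutants were above both controls for 4 members, *Egr1*, *Egr3*, *Npas4* and *Nr4a1*, against 21.6% of all genes in DGCs. Other lists differed in direction. Of 11 other early genes 6 were below 0, with a median of -0.22, and of 10 later activity genes 7 were below 0, with a median of -0.27. Of these *Scg2*, which encodes a granin, was called lower at -1.36 (FDR 0.0134). Of 10 other early transcription regulators 7 were above 0, with a median of 0.15, and for 4 both mutants were above both controls. Of 17 upstream factors and kinases 10 were above 0, with a median of 0.03. No member was called in edgeR or DESeq2, while in edgeR 124 genes were called higher and 96 lower in these nuclei. *Egr1* was 10.7 and 6.64 UPM in controls and 19.3 and 15.2 UPM in mutants, with FDR 0.243. *Npas4* was 3.25 and 2.83 UPM in controls and 14.5 and 6.71 UPM in mutants, from 37, 46, 6 and 23 UMIs, with FDR 0.151. Oligodendrocytes of the same samples are given for comparison, and whether their UMIs of these genes are background was not tested. *Npas4* in them was 6.73 and 0.392 UPM in controls and 0 and 3.13 UPM in mutants, from 3, 1, 0 and 7 UMIs, so DGCs of both mutants were above their own. *Egr1* in them was 20.2 and 18.8 UPM in controls and 7.17 and 13.9 UPM in mutants, from 9, 48, 1 and 31 UMIs. DGC values of *Egr1* were thus below that level in controls and above it in mutants, by few UMIs. Other glia differed, with *Egr1* at 7.56 to 14.3 UPM in astrocytes and 7.77 to 15.8 UPM in OPCs over the 4 samples. *Nr4a1* in DGCs was 6.95 and 5.96 UPM in controls and 19.3 and 7.88 UPM in mutants. In oligodendrocytes of mutant 2 it was 8.06 UPM, so DGCs of that sample did not exceed this level.

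For other members mutant 1 stood far above mutant 2. *Nr4a3* in DGCs was 7.91 and 8.61 UPM in controls and 50.7 and 7.30 UPM in mutants. *Homer1* was 118 and 87.5 UPM in controls and 227 and 105 UPM in mutants, and *Fos* was 6.07 and 1.66 UPM against 26.6 and 3.21 UPM. In all 3 the genotypes overlapped, and mutant 2 lay within the control range for *Homer1* and *Fos* and below it for *Nr4a3*. The 4 DGC markers summed to 421 and 401 UPM in control DGCs and 372 and 390 UPM in mutant ones. The 4 CA1 markers summed to 23.0 and 26.9 UPM in controls and 33.8 and 35.6 UPM in mutants, and inhibitory markers to 71.7 and 81.1 UPM against 174 and 90.5 UPM. Excitatory markers summed to 579 and 604 UPM in controls and 391 and 417 UPM in mutants. All 4 markers of each of these lists had a UMI in every sample. The part of other cells' RNA in the DGC values was not tested.

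**Figure D3:**
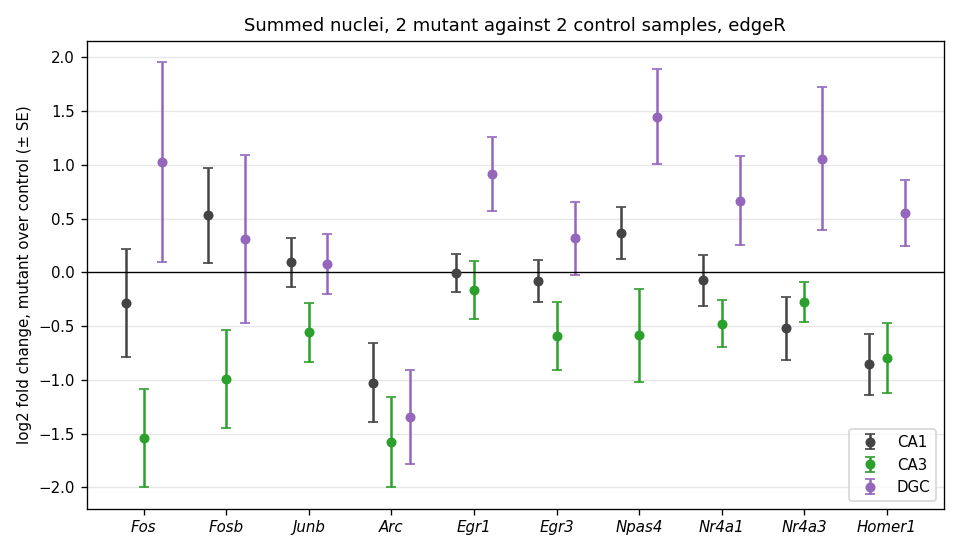
Log2 fold change of each member, mutant over control, in summed nuclei of CA1 (grey), CA3 (green) and DGCs (purple), with bars of 1 standard error from edgeR on 2 samples per genotype. All CA3 points lie below 0 and all DGC points except *Arc* above it, with the widest bars in DGCs, and none of the 30 points was called in edgeR.

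Whether the genotype effect itself differed between types was tested with the sample as a term, so that a shift of a whole sample cancels. For DGCs against CA1, 195 of 16987 genes, or 1.15%, passed FC above 2 and FDR below 0.05, and 2 of 10 members were among them. For *Homer1* the log2 fold in DGCs exceeded that in CA1 by 1.33 ± 0.16 (SE), with FDR 4.46e-08. Its level in CA1 was 4.84-fold and 4.03-fold that in DGCs in controls and 1.35-fold and 2.03-fold in mutants, so the 2 ratios of controls were above both of mutants. For *Nr4a3* the difference was 1.53 ± 0.31 (SE) with FDR 0.00117. Without mutant 1 it was 0.96 with FDR 0.171, so that call rests on 21 UMIs in 90 nuclei of mutant 1. *Homer1* passed without any 1 of the 4 samples, at 1.15 to 1.65, and both genes passed in DESeq2.

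The other members were not called in that test. *Egr1* had a difference of 0.87 with FDR 0.0508, *Fos* 1.44 with FDR 0.0623, *Npas4* 1.02 with FDR 0.148 and *Nr4a1* 0.68 with FDR 0.349. All but *Arc*, 9 of 10, were above 0, with a median of 0.77 against -0.04 over all genes. Of other early transcription regulators 10 of 13 were above 0 with a median of 0.79, and *Nr4a2* at 1.27 (FDR 0.000117) and *Per1*, a clock gene induced by CREB, at 1.07 (FDR 0.0142) passed. *Sik1*, which encodes a kinase that acts on CREB coactivators, passed at 1.52 (FDR 0.0438), and *Pcsk1*, which encodes a protease of neuropeptide precursors, at 1.84 (FDR 0.00969). The later activity genes, to which *Pcsk1* belongs, were above 0 in 4 of 10, with a median of -0.36, and the other early genes, with *Sik1*, in 8 of 12, with a median of 0.22. Of 17 upstream factors and kinases 5 were above 0 and 0 were called. For CA3 against CA1, 0.107% of 16769 genes passed and 0 of 10 members did, although 6 had an unadjusted p under 0.05. In that test 8 of 10 members were below 0, and *Nr4a3* at 0.41 and *Homer1* at 0.12 were above it.

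Members were then counted in single nuclei. *Homer1*, found in 89.1% and 85.8% of CA1 nuclei of control 1 and control 2, was set aside, and nuclei with a UMI of 3 or more of the other 9 members were counted. In CA1 34.5% (exact 95% interval 31.9 to 37.3) and 32.1% (29.5 to 34.7) of control nuclei reached 3, against 19.3% (17.4 to 21.4) and 21.6% (20.0 to 23.2) of mutant nuclei. In MCs the shares were 52.6% and 43.8% in controls and 25.9% and 11.2% in mutants. In CA3 they were 21.4% and 19.7% against 9.59% and 13.0%. In DGCs they were 0.985% and 1.25% in controls and 4.44% and 3.24% in mutants, that is 4 and 15 nuclei. Oligodendrocytes reached 3 in at most 0.0972% of nuclei. Astrocytes reached 3 in 1.43% of nuclei of control 1, that is 7 nuclei, and in 0% of the other samples. In CA1, CA3, MCs and DGCs the genotypes did not overlap. This was not particular to these types. Both controls were also above both mutants in excitatory neurons 7, 8, 10 and 13 and in inhibitory neurons 5 and 12. In CA2 the genotypes overlapped. Inhibitory neurons 18 went the other way, at 4.35% and 0% in controls and 7.69% and 8% in mutants.

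Depth moved with these shares, since CA1 nuclei had medians of 8215 and 12164 UMIs in controls and 5270 and 9098 UMIs in mutants. When each nucleus was thinned to 4000 UMIs and shallower ones were left out, 16.3% and 9.60% of control CA1 nuclei reached 3 members, against 13.0% and 7.62% of mutant ones. This left 1195, 1281, 1066 and 2600 nuclei, and the genotypes overlapped. In CA3 the thinned shares were 8.99% and 4.69% against 4.02% and 2.43%, without overlap. In MCs they were 23.7% and 9.38% against 14.3% and 3.45%, which overlapped, from 38, 32, 21 and 87 nuclei. In DGCs they were 1.01% and 0.563% in controls against 3.92% and 1.39% in mutants, from 51 and 433 mutant nuclei. At 1500 UMIs, CA1 shares were 3.40% and 2.55% in controls and 4.07% and 1.76% in mutants. The mean difference in CA1, mutant minus control, was thus -12.9 percentage points with all UMIs, -2.63 at 4000 UMIs and -0.0595 at 1500 UMIs.

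**Figure D4:**
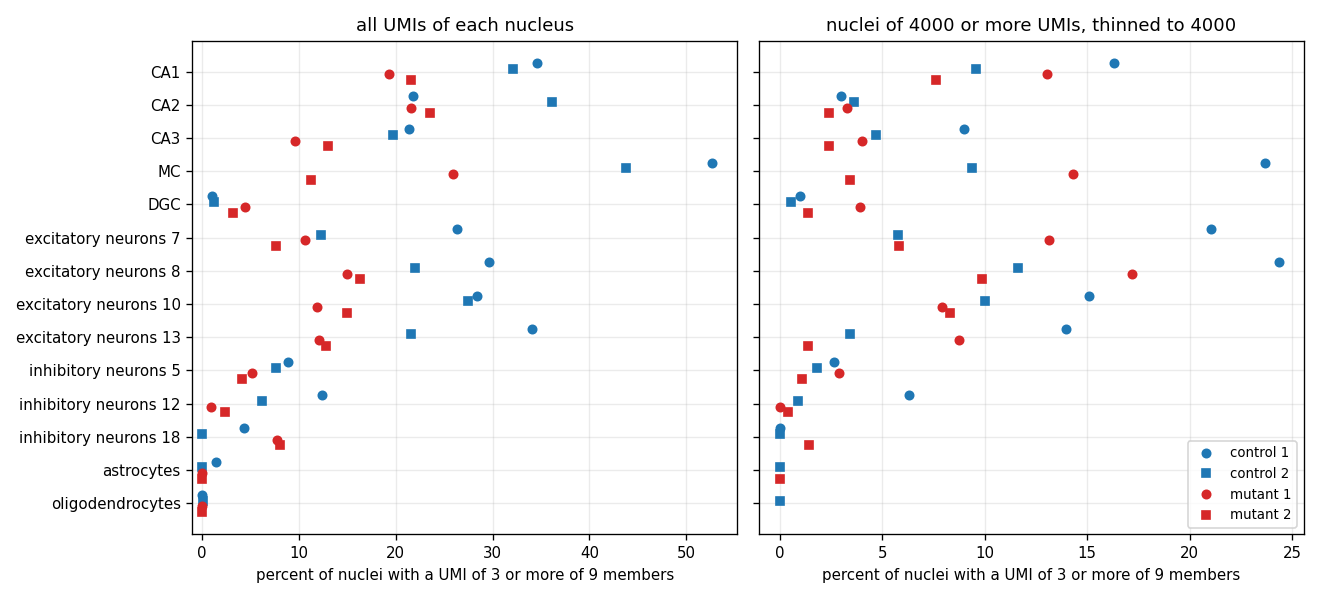
Percent of nuclei with a UMI of 3 or more of 9 members in each labelled neuron type and in 2 glial types, 1 point per sample, with all UMIs (left) and after thinning to 4000 UMIs (right, with points of under 20 nuclei left out). With all UMIs the CA1 controls (34.5 and 32.1%) lie above the mutants (19.3 and 21.6%), and after thinning they overlap (16.3 and 9.60% against 13.0 and 7.62%).

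Members were found in the same CA1 nuclei more often than their separate shares at a like depth would give. The odds ratio of finding both genes of a pair was pooled over 5 strata of UMIs per nucleus. It was above 1 in all 4 samples for 43 of 45 pairs, and its median over pairs was 2.87, 3.19, 3.49 and 3.15 in control 1, control 2, mutant 1 and mutant 2. *Fos* and *Fosb*, partners of JUN proteins in AP-1, had the highest ratio, with a median of 21.2 and a range of 12.4 to 36.3 over samples. *Fosb* and *Npas4* followed at 13.7, *Fosb* and *Junb* at 12.4, and *Fos* and *Npas4* at 12.2. *Fos* and *Arc* had a ratio of 6.42 (5.40 to 7.75). The lowest ratios were those of *Homer1* with *Junb*, at 1.61, and of *Homer1* with *Nr4a1*, at 1.82. *Egr3* with *Homer1* was above 1 in 3 of 4 samples, and *Fosb* with *Homer1* in the 3 samples that gave a ratio. By member, *Fosb* (6.91), *Fos* (5.73) and *Npas4* (4.28) had the highest median ratio with the other 9, and *Nr4a3* (2.28) the lowest. In CA3, 39 of 45 pairs were above 1 in every sample. In inhibitory neurons 5 the count was 22, of 41 pairs with a ratio in every sample, and the median over pairs was lowest in control 2, at 1.39. Points of a sample share its libraries and depth, and the ratios carry no test.

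**Figure D5:**
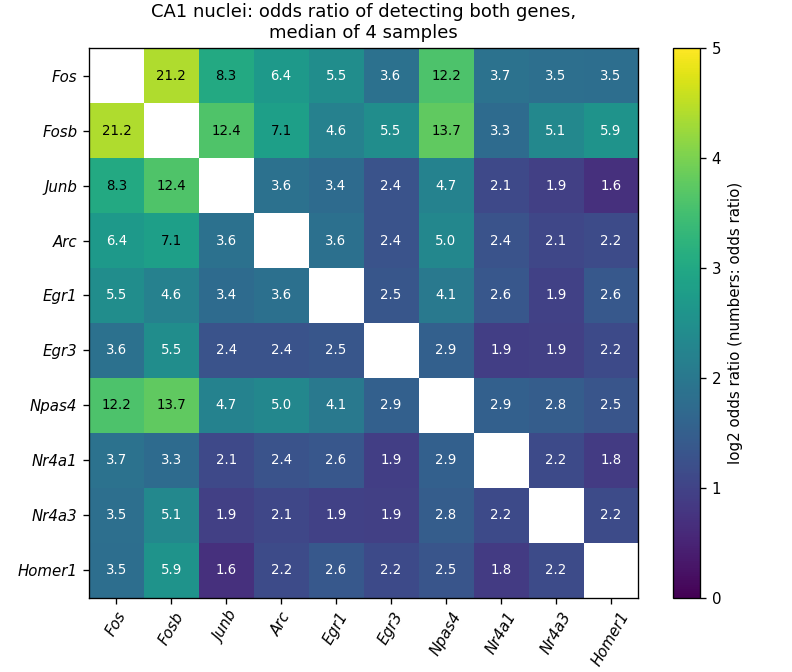
Odds ratio of finding both genes in a CA1 nucleus for each pair of members, over 5 strata of depth, as the median of 4 samples, with the color on a log2 scale and the ratio printed. *Fos* with *Fosb* is highest at 21.2, followed by *Fosb* with *Npas4* at 13.7, and *Homer1* with *Junb* is lowest at 1.61.

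Genes whose pattern was most like the members were sought in neurons. The measure was the ratio of UPM between nuclei with 3 or more of the 9 members and nuclei with none, by the lowest of the 4 samples. Of 11739 genes compared, the first was *Egr4*, of the same family as *Egr1*, at 7.08- to 31.1-fold. *Ier2* followed at 6.37- to 10.9-fold, then the phosphatase genes *Dusp1* at 5.10- to 7.52-fold and *Dusp5* at 4.94- to 13.4-fold. *Nr4a2*, the third of the NR4A receptors, was at 4.01- to 13.6-fold. *Gm6260*, *Ovca2*, *Dusp6*, *Rasl11b* and *Gadd45b* completed the first 10, the last at 3.18- to 4.41-fold. Nuclei with 3 or more members were deeper and came from other types than those with none, with median depths of 8598.5 and 4921 UMIs in control 1. *Homer1*, which was not used to choose the nuclei, was 6.63-fold and 6.01-fold higher in such nuclei in controls and 3.18-fold and 2.44-fold in mutants. Within CA1 alone it was 3.47-fold and 4.16-fold higher in controls and 2.49-fold and 1.98-fold in mutants, so the controls lay above the mutants in both. The CA1 nuclei with no member had median depths of 7431 and 11265 UMIs in controls and 4293.5 and 8089 UMIs in mutants. Neurons of controls also held 2336 and 2007 DGC nuclei, against 90 and 463 in mutants. The part of depth and of cell types in this difference between genotypes was not tested. Within CA1 the gene list was led by *Btg2*, an inhibitor of proliferation, at 11.4- to 19.9-fold, and held *Egr4*, *Ier2*, *Dusp5*, *Dusp1* and *Nr4a2* again.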

How the data were processed

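Bulk RNAseq and snRNAseq samples were grouped by the genotype and replicate in their labels. For bulk libraries the authors aligned reads to mm10 with RSEM 1.3.0 and Bowtie2 2.2.9 and deposited expected counts per gene, which share out reads that fit several genes, with TPM and FPKM from RSEM (the FPKM values were not used). A further deposited matrix gives a normalized signal per gene, which is the expected count over the size factor of its library. For nuclei the authors used Cell Ranger 3.1.0 with a pre-mRNA index of mm10, so that introns were counted, and deposited UMI counts per gene and nucleus for the nuclei they kept, a size factor for each nucleus (the ratio of its UMIs to the geometric mean), which was not used, and a cell type label. Clustering and labels are thus the authors', and no doublet caller was run here.

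Expected counts were rounded to whole numbers. Libraries held 56002381 to 79576196 expected counts, and nuclei samples 26307081 to 76486132 UMIs. Genotypes were compared with edgeR 4.0.16 in R 4.3.3 (quasi-likelihood test, filterByExpr, TMM), over all genes with Benjamini-Hochberg adjustment, at FC above 3 in bulk and above 2 in nuclei, with FDR below 0.05. In nuclei the mouse was the replicate, and UMIs of each labelled type were summed within a sample where all 4 samples had 10 nuclei or more. The difference between types was tested as an interaction with the sample as a term. Bulk CPM are TMM-scaled, and UPM are UMIs of a gene over all UMIs of those nuclei. Standard errors were taken as the size of the log2 value divided by the square root of its F. Overlap of genotypes was judged on CPM in bulk and UPM in nuclei. Alternatives used DESeq2 1.42.0 and limma 3.58.1 with a pseudocount of 1. EBSeq and the Monocle regression of the authors were not run. Other steps used numpy 2.4.6, pandas 2.3.3, scipy 1.17.1 and matplotlib 3.10.9. The scripts were tested on simulated data. At a set dispersion (spread between samples) of 0.05, FDR was below 0.05 for 0% of 2-fold changes in CA1 and 4.1% in DGCs. For 4-fold changes it was 91.3% and 77.8%, and 36.5% for 4-fold differences between DGCs and CA1. In bulk, at a dispersion of 0.01, it was 80.3% of 2-fold changes. The lack of a call in nuclei thus does not show that a member is unchanged.

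Motifs were searched on both strands. RefSeq windows were searched for 7 members, and chromosome 18, which holds *Egr1*, was left out of the search of members. Sequence of GENCODE vM21 exons is not printed. Thinning used fixed seeds, and exact intervals are Clopper-Pearson at 95%.

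The members, the other gene lists and the tests were chosen with earlier results of these data known. All 10 members are named, with values in nuclei for those with an unadjusted p below 0.05, and for other lists in bulk up to 3 genes of lowest p. Values chosen for display after they were seen are *Egr1* and *Nr4a1* in CA1, *Bdnf* in CA3, *Fos*, *Nr4a3*, *Homer1*, *Nr4a1*, *Scg2*, *Trhr* and *Lct* in DGCs, and the list genes that passed in the comparison of DGCs with CA1. Like genes were the 10 with the highest ratio by the lowest sample, among genes with at least 20 UMIs in the nuclei with 3 or more members of each sample. The list of HOMER1 partners is not reported here.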

Additional observations from a re-analysis of the deposited data

Results flagged for a closer look

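Of the results above, 2 were picked out because the genotype effect itself differed between cell types in a test of that difference. For *Homer1* the log2 fold change, mutant over control, was 1.33 higher in DGCs than in CA1 (edgeR, FDR 4.46e-08). It was -0.86 in CA1, where both mutants were below both controls, and 0.55 in DGCs, where the genotypes overlapped. For *Nr4a3* the difference was 1.53 (FDR 0.00117), from -0.52 in CA1 and 1.06 in DGCs, with overlap in both. Its value without mutant replicate 1 was 0.96 (FDR 0.171). DGC nuclei of mutants numbered 90 and 463, and their inhibitory markers summed to 174 and 90.5 UPM against 71.7 and 81.1 UPM in controls, and *Trhr*, a ventral gene, to 60.4 and 56.9 UPM against 6.68 and 7.44 UPM. The part of these was not tested.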

How the results depend on the processing

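In bulk the number of members called was 0 in all settings. Genes called in bulk were 45, and 313 with no filter on low counts, 125 with DESeq2, 7 with limma on the authors' matrix, 250 with no minimum fold, and 0 to 395 with 1 library left out (395 and 154 without mutant replicate 1 or 2, and 0 without either control). In nuclei 1 pair of a member and a type was called, 6 with no filter and 0 to 12 with 1 sample left out (0 without mutant replicate 2, 2 without control replicate 1, 8 without mutant replicate 1 and 12 without control replicate 2). In DESeq2 it was also 1, *Arc* in CA3 in place of *Nr4a3* in inhibitory neurons 12. Calls over all genes and types were 346, and 1786 with no filter and 266 to 2625 with 1 sample left out (2625 without control replicate 2). Where 1 sample was left out, the lone sample of its genotype is assumed to vary like the others. Other alternatives kept the direction of 50 of 50 member values in bulk and of 84 of 84 in nuclei, and 11 of the latter were newly called and 1 was lost, *Nr4a3* in inhibitory neurons 12 in DESeq2 (FDR 0.297). Members called for DGCs against CA1 were 2, and 1 to 2 with 1 sample left out, chosen after seeing the data. For CA3 against CA1 they were 0, and 0 to 1 (without control replicate 2).

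With the replicate block 26 genes were called in bulk and 1894 in nuclei, 8 pairs of a member and a type, and 3 members in whole samples (*Arc*, *Npas4* and *Homer1*, FDR 0.0343 to 0.0387). The 8 pairs were *Arc* and *Fos* in CA3, *Egr1*, *Fos* and *Npas4* in DGCs, *Arc* in MCs, *Homer1* in excitatory neurons 8 and *Nr4a3* in inhibitory neurons 12. The deviations of samples with the same number correlated at 0.0644 in bulk and 0.516 in whole nuclei samples, over 2 pairs each. Nothing in the labels ties the numbers to a litter or day, so the samples are taken to share only a number.

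Leaving out 1 sample turned the sign of some values with no call. Their log2 ranges were -0.53 to 0.11 for *Fos*, -0.11 to 0.30 for *Junb*, -0.29 to 0.35 for *Arc* and -0.15 to 0.16 for *Homer1* in bulk, -1.70 to 0.075 for *Nr4a3* in excitatory neurons 10, and, for DGCs against CA1, -0.26 to 0.98 for *Fosb* and -0.80 to 0.33 for *Arc*. The difference in nuclei with 3 or more members was -12.9 percentage points in CA1, -9.27 in CA3 and 2.73 in DGCs. Thinned to 1500 UMIs it was -0.0595, -1.49 and 0.454, and at 4000 UMIs, added after seeing the data, -2.63, -3.62 and 1.86. The median odds ratio of 3.15 was 3.50 with no strata. DGC values of mutants are limited by 90 and 463 nuclei.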
